A study of Danio rerio with 4 samples.

Results

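The genes described here are 9 basic leucine zipper (bZIP) transcription factor genes of zebrafish: the AP-1 subunits fosl2, fosab, jun, junba and junbb, the ATF genes atf3 and atf5a, the CNC gene nfe2l2a, and the large Maf gene maf. The genes were chosen with earlier results of these data known, so their counts and medians beside those of all probe sets are description only. Their probe sets were taken by name, as all that carry one of these symbols in the annotation of the array or in the tables of the study. This gave 17 of the 15502 probe sets that are not controls. The array held 3 probe sets for fosl2, 4 for fosab, 2 each for jun, nfe2l2a and maf, and 1 each for junba, junbb, atf3 and atf5a. The name of both maf probe sets came from the study's tables and that of the other 15 from the annotation.

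The study asked which genes lie downstream of pou5f3, a Class V POU factor gene, just before and just after the end of gastrulation. Embryos came from crosses of fish hemizygous for the hsp-en-pou5f3 transgene with wild-type fish of the RW strain. The transgene joins the repressor domain of Drosophila Engrailed to Pou5f3 under a heat shock promoter, so its expression follows heat and is not limited by the promoter to 1 tissue. The 4 arrays were wild-type at 90% epiboly, en-pou5f3 +/- at 90% epiboly, wild-type at 3-ss (the stage with 3 somites) and en-pou5f3 +/- at 3-ss, with 1 array for each condition. Embryos of both genotypes were raised at 25°C, held at 37°C for 60 min from the named stage, and left for a further 30 min. They were genotyped one by one and pooled by genotype, and the RNA came from whole embryos. A stage name thus marks the start of heating, and the RNA was taken after those 60 and 30 min. All 4 pools were heated and none of the arrays was of unheated embryos, so a response to heat and the normal level at a stage cannot be told apart. In whole embryos, fewer cells of a type and less RNA per cell cannot be told apart either. The study's supplement speaks of more arrays than the 4 used here, and the sample labels, which give 1 for each condition, were followed. With 1 array for each condition no difference between conditions has a replicate check, and no test across arrays was made. The pou5f3 probe set read 5473 in the wild-type and 8284 in the en-pou5f3 pool at 90% epiboly, and 1277 and 2138 at 3-ss. It was thus higher in the array labelled en-pou5f3 at both stages, by 0.60 and 0.74 on the log2 scale, though whether its probes lie in the part of the gene held by the transgene is not given in the sources used here.

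bZIP proteins bind DNA as pairs held together by the leucine zipper, and the partner sets which sites are bound and whether the target is switched on. Fos proteins need a Jun partner to form AP-1, while Jun proteins can also pair with each other or with ATF proteins. Genes of the Fos and Jun families are classical immediate-early genes, whose RNA appears within minutes of a growth factor, a wound or a stress and is short-lived. Nfe2l2a is a zebrafish form of Nrf2, the activator of antioxidant genes that Keap1 holds in check, and it pairs with small Maf proteins. The large Maf proteins carry an activation domain and take part in the differentiation of lens and other tissues.

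The members showed 2 patterns. The Fos and Jun genes and atf3 read several-fold higher at 3-ss than at 90% epiboly in both genotypes, and most of them also read somewhat higher in en-pou5f3 embryos than in wild-type embryos of the same stage. The genes atf5a, nfe2l2a and maf did not share that step. By genotype, atf5a was higher and nfe2l2a and maf were lower in en-pou5f3 than in wild-type embryos at both stages, nfe2l2a by less than 2-fold at 3-ss. In wild-type embryos nfe2l2a and both maf probe sets were also lower at 3-ss than at 90% epiboly, past 2-fold for 1 maf probe set only. The plot of signals by array shows all 17 probe sets.

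**Figure D1:**
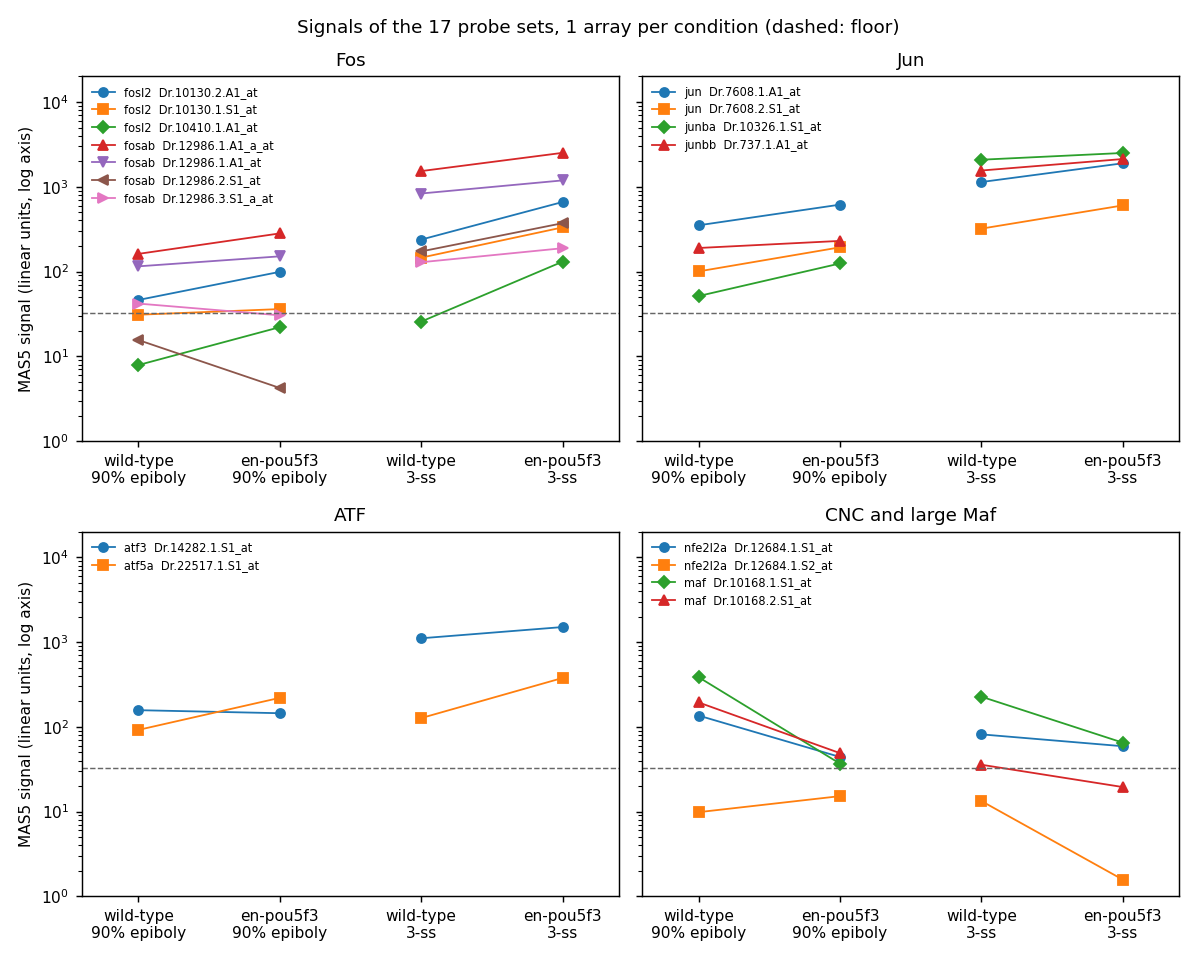
MAS5 signal (linear units on a log axis) of each of the 17 probe sets on the 4 arrays, in 4 panels by family; each point is 1 array, lines join the genotypes of a stage, and the dashed line is the floor of 32.4. The 3-ss points of the Fos and Jun genes and of atf3 lie above their 90% epiboly points, while both maf probe sets lie lower in en-pou5f3 than in wild-type embryos at either stage.

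Values are MAS5 signals, a linear brightness for each probe set that was scaled on each array to the same mean. A signal is comparable between arrays for 1 probe set but not between probe sets, so no gene is ranked against another by level. Signals under 32.4, the 95th percentile of control probe sets with no target in the embryo, were set to that floor before a ratio was taken. A ratio with 1 signal at the floor is a bound and is written as at least, and none is given where both signals are under it. As the only error at hand, the pooled SD of the log2 ratio between probe sets of the same gene was 0.29 for genotype at 90% epiboly, 0.34 for genotype at 3-ss, 0.42 for stage in wild-type and 0.40 for stage in en-pou5f3. It measures disagreement between probe sets and holds no variation between embryos or pools. Of the 17 probe sets, 11 were at or over the floor on all 4 arrays.

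Among the Fos genes, fosl2 (NCBI gene 558921) encodes Fra-2, a Fos protein that partners Jun, known in mammals from epithelia and bone. Its brightest probe set, Dr.10130.2.A1_at, read 46.2 in the wild-type and 99.2 in the en-pou5f3 pool at 90% epiboly, and 238 and 661 at 3-ss. The signal was lowest in wild-type at 90% epiboly and highest in en-pou5f3 at 3-ss, and the en-pou5f3 array was the brighter one at each stage. The genotype log2 ratio was 1.1 at 90% epiboly (2.15-fold) and 1.47 at 3-ss (2.78-fold). The stage log2 ratio was 2.37 in the wild-type and 2.74 in the en-pou5f3 pool. Genotype and stage thus both passed 2-fold for this probe set, with the step by stage the larger of them. The wild-type signal at 90% epiboly was barely over the floor, which limits the ratios made from it.

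The other fosl2 probe sets had lower signals, which does not compare amounts of RNA. Dr.10130.1.S1_at read 30.9, 36.1, 146 and 332 in the order wild-type and en-pou5f3 at 90% epiboly, then wild-type and en-pou5f3 at 3-ss. It was close to the floor in both pools at 90% epiboly, where the genotype ratio was at least 1.11-fold, and at 3-ss it was 2.28-fold higher in en-pou5f3 embryos, a log2 ratio of 1.19. Dr.10410.1.A1_at read 7.88, 22.1, 25.7 and 131 in the same order, so it was over the floor in en-pou5f3 embryos at 3-ss only. There it was at least 4.03-fold higher than in wild-type embryos of the same stage. All 3 fosl2 probe sets had their highest signal in en-pou5f3 embryos at 3-ss.

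The gene fosab (NCBI gene 394198) is a zebrafish form of c-Fos, the founding member of the family. Its brightest probe set, Dr.12986.1.A1_a_at, read 162 in the wild-type and 282 in the en-pou5f3 pool at 90% epiboly, and 1531 and 2514 at 3-ss. The 3-ss signals stood far above those at 90% epiboly, by 3.24 on the log2 scale in the wild-type and 3.16 in the en-pou5f3 pool, about 9-fold in each. The genotype ratio was smaller than 2-fold at both stages, with log2 values of 0.80 and 0.72.

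A probe set of the same transcript cluster, Dr.12986.1.A1_at, read 115, 151, 833 and 1189 in the same order of arrays, with genotype log2 ratios of 0.39 and 0.51 and stage log2 ratios of 2.85 and 2.98. It had the same order of the 4 arrays as the brightest probe set. Dr.12986.2.S1_at read 15.6, 4.23, 173 and 372, so that it was under the floor in both pools at 90% epiboly and 2.15-fold higher in en-pou5f3 than in wild-type embryos at 3-ss. Dr.12986.3.S1_a_at read 41.9, 30.4, 129 and 188, and its genotype log2 ratio changed sign, from a bound of -0.37 at 90% epiboly to 0.55 at 3-ss. The 4 fosab probe sets were all higher at 3-ss than at 90% epiboly in both genotypes, by at least 3.07-fold. By genotype they disagreed at 90% epiboly, where 2 were higher in en-pou5f3 embryos by less than 2-fold, 1 was lower and 1 was under the floor.

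Of the Jun genes, jun (NCBI gene 335916) encodes c-Jun, the main partner of Fos and a substrate of the JNK kinases. Probe set Dr.7608.1.A1_at read 351 in the wild-type and 615 in the en-pou5f3 pool at 90% epiboly, and 1138 and 1893 at 3-ss. Probe set Dr.7608.2.S1_at read 100.4 and 193 at 90% epiboly, and 321 and 603 at 3-ss. Both had the same order of arrays, and their ratios were close. The genotype log2 ratios were 0.81 and 0.94 at 90% epiboly and 0.73 and 0.91 at 3-ss, from 1.66-fold to 1.92-fold and so under 2-fold in each case. The stage log2 ratios were 1.70 and 1.68 in wild-type and 1.62 and 1.64 in en-pou5f3 embryos, about 3-fold.

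The junba gene (NCBI gene 407086) is a form of JunB, which can restrain c-Jun as well as form AP-1. Its probe set, Dr.10326.1.S1_at, read 51.4 in the wild-type and 125 in the en-pou5f3 pool at 90% epiboly, and 2085 and 2505 at 3-ss. The wild-type pool at 90% epiboly was barely over the floor, and both pools at 3-ss were bright. The stage ratio was 40.6-fold in wild-type embryos, a log2 ratio of 5.34, and it ranked 2 from the top among the 11815 probe sets measured in that comparison. In en-pou5f3 embryos it was 20.1-fold, a log2 ratio of 4.33, ranking 5 from the top of 12010. The genotype log2 ratio was 1.28 at 90% epiboly and 0.26 at 3-ss, so the genotypes differed by less than the spread between probe sets at the later stage.

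Its paralogue junbb (NCBI gene 336038), measured by Dr.737.1.A1_at, read 190 in the wild-type and 230 in the en-pou5f3 pool at 90% epiboly, and 1555 and 2124 at 3-ss. The stage step was again large, 8.20-fold in the wild-type and 9.25-fold in the en-pou5f3 pool. The genotype log2 ratio was 0.28 at 90% epiboly, within the spread between probe sets of a gene, and 0.45 at 3-ss, a little over it.

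The ATF genes parted from each other. The gene atf3 (NCBI gene 393939) encodes a stress-induced repressor that pairs with Jun proteins, and its probe set Dr.14282.1.S1_at read 157 in the wild-type and 145 in the en-pou5f3 pool at 90% epiboly, and 1109 and 1505 at 3-ss. It thus had the stage pattern of the Fos and Jun genes, with log2 ratios of 2.82 in the wild-type and 3.38 in the en-pou5f3 pool. The genotype log2 ratio was -0.12 at 90% epiboly, within the spread between probe sets, and 0.44 at 3-ss.

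The gene atf5a (NCBI gene 566223) encodes an ATF5 protein, which in mammals switches on genes of the mitochondrial stress response. Its probe set Dr.22517.1.S1_at read 92.0 in the wild-type and 220 in the en-pou5f3 pool at 90% epiboly, and 127 and 377 at 3-ss. Here both en-pou5f3 arrays were brighter than both wild-type arrays, so the order followed genotype and not stage. The genotype ratio was 2.39-fold at 90% epiboly and 2.97-fold at 3-ss, with log2 values of 1.26 and 1.57. By stage it passed 2-fold in neither genotype, with log2 ratios of 0.46 and 0.78. Its paralogue atf5b, which is not among the 9 genes, was added after its values were seen. The atf5b probe set read 245, 388, 286 and 493 in the same order of arrays, with genotype log2 ratios of 0.66 and 0.78.

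The CNC gene nfe2l2a (NCBI gene 360149) had 1 usable probe set. Dr.12684.1.S1_at read 136 in the wild-type and 44.1 in the en-pou5f3 pool at 90% epiboly, and 81.5 and 59.1 at 3-ss. It was brightest in wild-type at 90% epiboly and lower in en-pou5f3 than in wild-type embryos at both stages. The genotype log2 ratio was -1.62 at 90% epiboly, a 3.08-fold lower signal, and -0.46 at 3-ss. By stage it was lower at 3-ss in wild-type, with a log2 ratio of -0.74, and higher in en-pou5f3 embryos, with 0.42, neither past 2-fold. The second probe set, Dr.12684.1.S2_at, read between 1.57 and 15.2, under the floor on all 4 arrays, and gives no ratio.

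With each gene taken by its brightest probe set, the large Maf gene maf had the largest genotype ratio of the 9 at both stages, though the bound of 1 fosl2 probe set at 3-ss, given above, was larger. Dr.10168.1.S1_at read 385 in the wild-type and 36.8 in the en-pou5f3 pool at 90% epiboly, and 227 and 65.1 at 3-ss. The wild-type arrays were well above the en-pou5f3 arrays at both stages, and the en-pou5f3 array at 90% epiboly was only just over the floor. The signal was 10.5-fold lower in en-pou5f3 embryos at 90% epiboly, a log2 ratio of -3.39 that ranked 15 from the bottom of 11594 probe sets. At 3-ss it was 3.49-fold lower, a log2 ratio of -1.80 that ranked 45 from the bottom of 11970. By stage the log2 ratio was -0.76 in the wild-type and 0.82 in the en-pou5f3 pool, both inside 2-fold and of opposite sign.

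The second maf probe set, Dr.10168.2.S1_at, read 194 in the wild-type and 48.9 in the en-pou5f3 pool at 90% epiboly, and 35.7 and 19.5 at 3-ss. At 90% epiboly it too was lower in en-pou5f3 embryos, by 3.97-fold, a log2 ratio of -1.99. At 3-ss it was near the floor in wild-type and under it in en-pou5f3 embryos, so the genotype ratio was a bound of -0.14 on the log2 scale. In wild-type embryos its signal was 5.43-fold lower at 3-ss than at 90% epiboly, a log2 ratio of -2.44, where the brighter probe set gave -0.76. In en-pou5f3 embryos its stage log2 ratio was a bound of -0.59, where the brighter probe set gave 0.82. The maf probe sets shared the direction by genotype, while by stage they differed in size in wild-type embryos and in sign in en-pou5f3 embryos.

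By genotype at 90% epiboly, 3 member probe sets were at least 2-fold higher in en-pou5f3 embryos (those of junba and atf5a and the brightest of fosl2), where 1.30% of all 11594 probe sets measured in that comparison were. At least 2-fold lower were 3 (both of maf and 1 of nfe2l2a), against 2.25% of all. A further 8 passed 2-fold in neither direction, and 3 had both signals under the floor. Over the 9 genes, each taken by its brightest probe set, the median log2 ratio was 0.80, with a range from -3.39 to 1.28, and over all probe sets it was 0.03. The 5 Fos and Jun genes lay between 0.28 and 1.28, all above 0.

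At 3-ss, 5 member probe sets were at least 2-fold higher in en-pou5f3 embryos, where the share of all 11970 probe sets was 1.80%. They were all 3 of fosl2, 1 of fosab and that of atf5a. The fosl2 probe set Dr.10410.1.A1_at is a bound, measured there only because its en-pou5f3 signal was over the floor. The brighter maf probe set was at least 2-fold lower, against 1.94% of all, 10 passed 2-fold in neither direction and 1 was under the floor in both pools. The median over the 9 genes was 0.45, with a range from -1.80 to 1.57, beside 0.01 over all probe sets. The 5 Fos and Jun genes again all lay above 0, from 0.26 to 1.47. Probe sets of 1 gene share a transcript, and the counts are therefore not counts of independent features. The atf5a probe set and the brightest of fosl2 were at least 2-fold higher at both stages, and the brighter of maf was at least 2-fold lower at both.

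**Figure D2:**
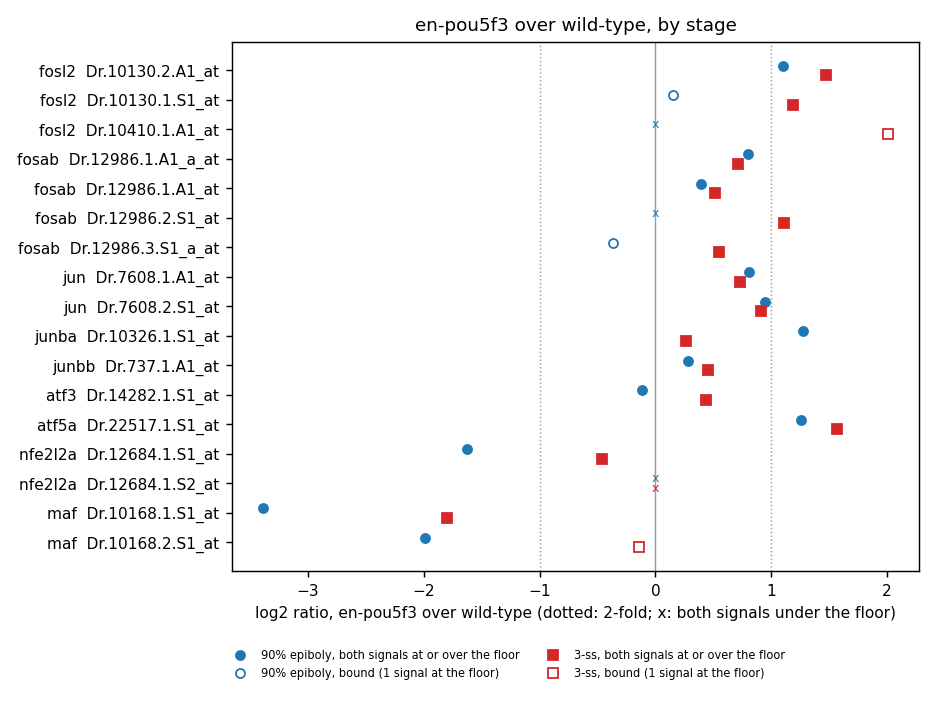
Log2 ratio of the en-pou5f3 over the wild-type signal for each of the 17 probe sets at 90% epiboly (circles) and at 3-ss (squares); filled points have both signals at or over the floor, open points are bounds, an x marks a pair of signals under the floor, and dotted lines mark 2-fold. The brighter maf probe set lies farthest to the left, at -3.39 and -1.80, while the atf5a points lie at 1.26 and 1.57.

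The size of the genotype ratio differed between the stages for some members, though with 1 array for each condition the difference could not be tested. The junba log2 ratio at 3-ss minus that at 90% epiboly was -1.01. For nfe2l2a the ratio at 3-ss lay 1.16 above that at 90% epiboly, and for the brighter maf probe set 1.59 above it, in each case nearer to 0. The brightest probe sets of fosl2 and atf5a lay 0.37 and 0.32 higher at 3-ss, and both jun probe sets stayed within 0.10 of the earlier value, with differences of -0.07 and -0.03.

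By stage in wild-type embryos, 11 member probe sets were at least 2-fold higher at 3-ss, where 8.00% of all 11815 probe sets were, and 1, the dimmer of maf, was at least 2-fold lower, against 3.97% of all. Of the others, 3 passed 2-fold in neither direction and 2 were under the floor in both pools. In en-pou5f3 embryos 12 were at least 2-fold higher, where 7.67% of all 12010 were, and 0 were at least 2-fold lower, against 3.17% of all. The remaining probe sets were 4 that passed 2-fold in neither direction and 1 under the floor in both pools. The stage and genotype ratios are made from the same 4 arrays and so share signals.

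All the probe sets that passed 2-fold upward belonged to the Fos and Jun genes and atf3. In wild-type embryos 11 of their probe sets could be measured and all 11 were at least 2-fold higher at 3-ss, from 1.62 to 5.34 on the log2 scale, and in en-pou5f3 embryos all 12 that could be measured were, from 1.62 to 4.33. Some of these are bounds, since a probe set under the floor at 90% epiboly was measured only because it was bright at 3-ss. Over these 6 genes by brightest probe set, the median stage log2 ratio was 2.93 in the wild-type and 3.18 in the en-pou5f3 pool, beside 0.02 and 0.03 over all probe sets. The other members, atf5a, nfe2l2a and the brighter maf probe set, stayed inside 2-fold by stage in both genotypes.

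**Figure D3:**
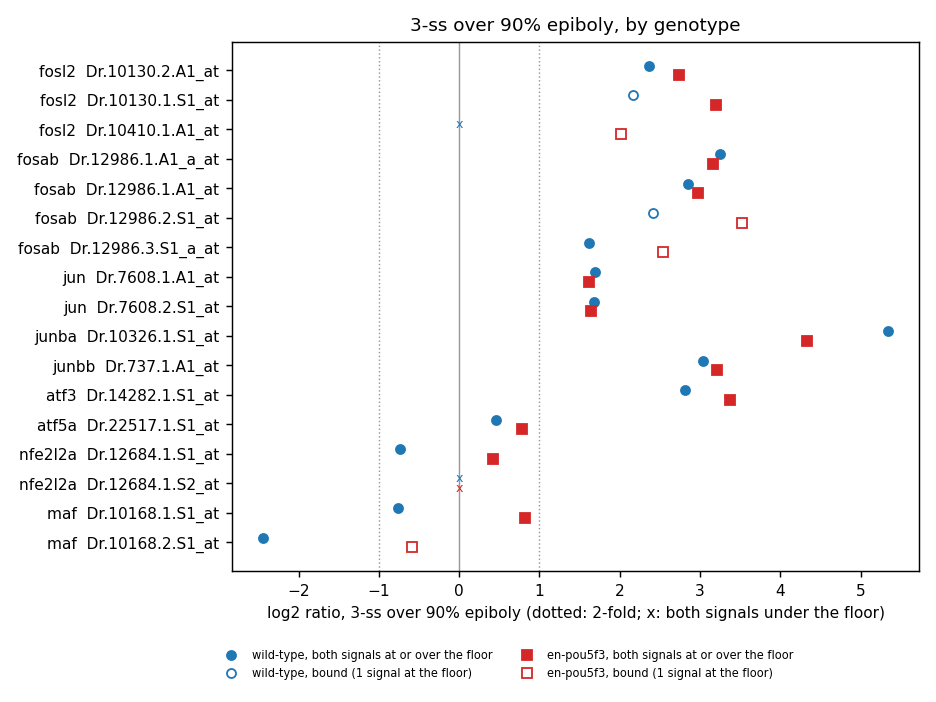
Log2 ratio of the 3-ss over the 90% epiboly signal for each of the 17 probe sets in wild-type (circles) and in en-pou5f3 embryos (squares), with open points for bounds, an x for a pair of signals under the floor, and dotted lines at 2-fold. The junba points lie farthest to the right, at 5.34 and 4.33, and those of atf5a, nfe2l2a and the brighter maf probe set lie between -0.76 and 0.82.

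The genes nearest in pattern to a member were sought among 7838 probe sets of other genes with 1 symbol that were over the floor on all 4 arrays, by the distance between log2 signals after each was centred on its own mean. With 4 arrays this is a description of shape only. For the brightest fosl2 probe set the nearest was si:ch73-335l21.4, with signals of 141, 243, 737 and 1815 in the order wild-type and en-pou5f3 at 90% epiboly, then wild-type and en-pou5f3 at 3-ss, at a distance of 0.27. It was followed by hspa1b, a heat-inducible Hsp70 gene, with 343, 460, 1631 and 3383 at a distance of 0.57, and by ccn1, a matrix protein gene, with 58.4, 160, 234 and 680, also at 0.57. Each of these was, like fosl2, lowest in wild-type at 90% epiboly and highest in en-pou5f3 at 3-ss, which follows from how they were picked.

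For the brighter maf probe set the nearest was sall4, a zinc finger factor gene of pluripotent cells, with signals of 8586, 1061, 5204 and 1345 at a distance of 0.36. The protocadherin gene pcdh18a followed with 276, 34.6, 164 and 42.3 at 0.39, and the forkhead gene foxb1b with 249, 33.4, 214 and 46.4 at 0.46. All of them were brighter on both wild-type arrays than on both en-pou5f3 arrays, as maf was.

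**Figure D4:**
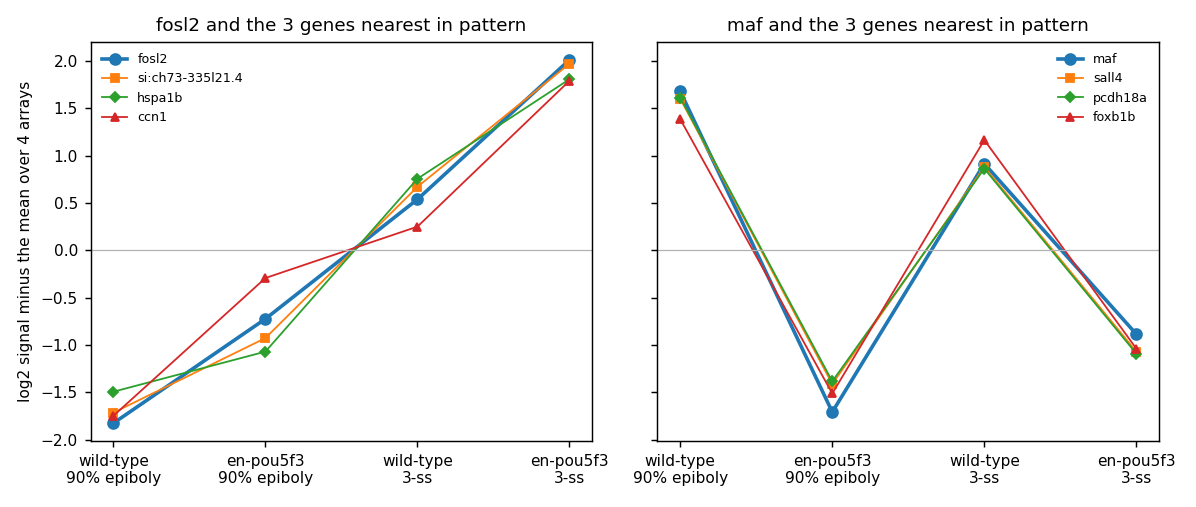
Log2 signal of fosl2 (left) and maf (right) by their brightest probe sets and of the 3 genes nearest to each in pattern, on the 4 arrays, each centred on its own mean over the arrays. The fosl2 group climbs from wild-type at 90% epiboly to en-pou5f3 at 3-ss, while the maf group is high on both wild-type arrays and low on both en-pou5f3 arrays.

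A list of other bZIP genes was drawn up by gene name, as relatives of Fos, Jun, ATF, CREB, C/EBP, PAR, CNC and Maf, cebpz among them. Whether each encodes a bZIP domain was not checked. Of the listed genes, 30 were on the array. For this list and those that follow, the share of all probe sets past 2-fold was 1.30% upward and 2.25% downward by genotype at 90% epiboly, 1.80% and 1.94% at 3-ss, 8.00% and 3.97% by stage in wild-type, and 7.67% and 3.17% by stage in en-pou5f3 embryos. Nothing is read from counts of 1 or 2 genes in a list. Of 25 measured by genotype at 90% epiboly, 2 were at least 2-fold higher (mafba at 1.56 and jdp2b at 1.02 on the log2 scale), 1 was lower (mafbb at -1.45), and the median log2 ratio was -0.03. At 3-ss 1 of 25 passed 2-fold, nfe2l3 at -1.42, with a median of 0.01. By stage, 4 of 25 were higher in wild-type, led by mafbb at 2.34 and mafba at 2.16, and 3 of 25 in en-pou5f3 embryos, led by mafbb at 3.47, with nfe2l3 lower there at -1.25. The large Maf gene mafba read 34.3, 101, 153 and 137, so its genotype difference at 90% epiboly had the opposite sign to that of maf. Its wild-type signal at 90% epiboly was only just over the floor, which limits the ratios made from it. The difference of mafbb had the same sign as that of maf. The Fos gene fosl1b read between 3.27 and 31.7, under the floor on all 4 arrays.

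Immediate-early genes that are often induced together with Fos and Jun were partly higher at 3-ss. In wild-type embryos 10 of 30 measured genes were at least 2-fold higher and 1 was lower, with a median log2 ratio of 0.43. Among them were dusp5, a phosphatase gene for ERK, at 3.15, the orphan receptor gene nr4a1 at 2.60 and socs3b, an inhibitor of cytokine signalling, at 1.98. The wild-type signals of dusp5 and nr4a1 at 90% epiboly, 41.6 and 35.5, were close to the floor, which limits these ratios. In en-pou5f3 embryos 7 of 29 were higher and 2 lower, with a median of 0.55, with dusp5 at a bound of 3.15 and, among measured ratios, socs3b at 2.72 and socs3a at 2.12. By genotype, at 90% epiboly 2 of 28 were higher (dusp2 at 1.45 and ier5l at 1.16) and 2 lower (mych at -1.80 and klf2a at -1.39), and at 3-ss 1 of 30 was higher (socs3a at 1.14) and 2 lower (myca at -1.48 and mych at -1.35). The medians by genotype were 0.07 and 0.02, below those of the 5 Fos and Jun genes, 0.81 and 0.72.

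Kinase genes of the JNK, p38 and ERK pathways, whose products act on Fos and Jun, were nearly level where they could be measured. The only JNK gene found on the array, mapk8b, read 6.31, 15.5, 4.50 and 35.7 in the order of arrays used above. It was over the floor in en-pou5f3 embryos at 3-ss only, and just so, and nothing can be read on the RNA level of JNK. None of 15 measured at 90% epiboly or of 16 at 3-ss passed 2-fold by genotype in either direction, with medians of 0.10 and 0.06. By stage 1 passed, mapk12a, a p38 gene, at 1.28 in the wild-type and 1.04 in the en-pou5f3 pool. RNA levels of a kinase gene do not report its activity.

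Genes of matrix and cell cycle listed as AP-1 targets in other systems were mixed. At 90% epiboly 2 of 16 were at least 2-fold higher in en-pou5f3 embryos, ccn1 at 1.46 and the collagenase gene mmp9 at 1.06, and 2 were lower, the cyclin gene ccnd1 at -1.17 and fn1b at -1.10, with a median of -0.16. At 3-ss 4 of 19 were higher, led by the metalloproteinase inhibitor gene timp2b at 1.68 and ccn1 at 1.54, and 0 were lower, with a median of 0.14. By stage 7 of 19 were higher at 3-ss in wild-type and 8 of 19 in en-pou5f3 embryos, with medians of 0.75 and 0.69. In the en-pou5f3 pool timp2b was at 2.58 and ccn1 at 2.09. In each genotype 1 gene of the list was at least 2-fold lower at 3-ss.

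Targets of Nrf2 and its inhibitor gene keap1a were set beside nfe2l2a. At 90% epiboly, where nfe2l2a was 3.08-fold lower, 1 of 14 was lower, the glutathione transferase gene gstp1.2 at -1.71, and 1 was higher, sqstm1 at 1.69, with a median of 0.08. At 3-ss none of 14 passed 2-fold by genotype, and the values ran from -0.38 to 0.40. For the ATF genes, the amino acid and unfolded protein stress list had a median genotype log2 ratio of 0.05 at 90% epiboly and 0.01 at 3-ss, and 1 of 25 passed 2-fold at each stage, downward. At 90% epiboly this was the receptor gene vldlr, a bound of -1.32, and at 3-ss the chaperone gene hsp90b1, at -1.23. By stage 4 of 25 were higher and 2 lower in each genotype, with calr, a chaperone gene of the endoplasmic reticulum, at 1.82 in the wild-type and 1.52 in the en-pou5f3 pool.

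**Figure D5:**
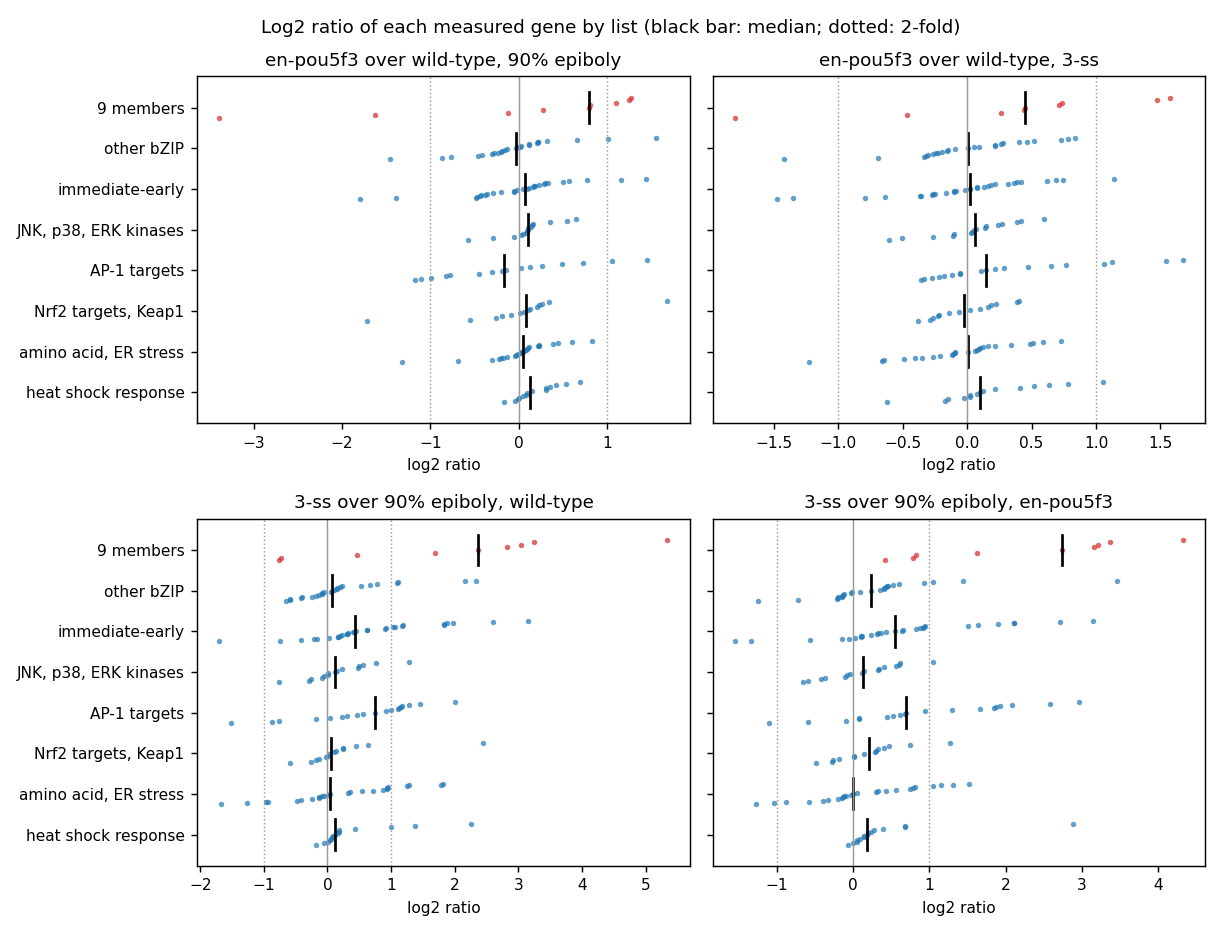
Log2 ratio of each measured gene (brightest probe set, bounds included) for the 9 members (red) and for 7 lists of other genes (blue) in the 4 comparisons, with black bars at the medians and dotted lines at 2-fold; the x axes differ between panels. The median of the members is 0.80 and 0.45 by genotype and 2.37 and 2.74 by stage, while the list medians lie between -0.16 and 0.75.

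Other lists give the setting of the stage and genotype steps. Of the heat shock response genes, 3 of 15 were at least 2-fold higher at 3-ss in wild-type embryos and 1 of 15 in en-pou5f3 embryos, with medians of 0.11 and 0.19. The largest stage log2 ratio in each was that of hspa1b, at 2.25 and 2.88. Their summed signals were 192121, 206437, 214648 and 232203 in the order of arrays used above, sums in which the brightest probe sets, such as that of hspa8, weigh most. By genotype 0 of 14 passed 2-fold at 90% epiboly and 1 of 15 at 3-ss, hspa1b at 1.05. Genes of the p53 response and cell death passed 2-fold by genotype in 0 of 13 at either stage, with medians of 0.32 and 0.14, and by stage in 3 of 13 in each genotype, all upward. The part of heat, of cell death and of stage in the AP-1 steps was not tested.

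Some genes of the marker lists of cell types also differed by genotype. The summed signal of the neural plate list was 17672 in the wild-type and 10970 in the en-pou5f3 pool at 90% epiboly, and 13558 and 7804 at 3-ss, a sum in which the brightest probe sets, such as that of sox3, weigh most. At 90% epiboly 3 of its 7 genes were at least 2-fold lower and 1, sox1a, was higher at 1.35 on the log2 scale, with a median of -0.04. At 3-ss 2 of the 7 were lower, the median was -0.58 and 0 reached 2-fold upward. None of the 7 was under the floor on any array. The endoderm list summed to 5595 and 3186 at 90% epiboly and to 2169 and 1307 at 3-ss, with medians of -0.75 and -0.68. In this sum too the brightest probe sets, such as that of gata5, weigh most. The genes of the list were not alike at 90% epiboly. There sox17, sox32 and foxa3 were level, at -0.09, 0.003 and 0.02, while cxcr4a was at -2.14 and foxa1, foxa2 and gata5 lay between -0.98 and -0.75. At 90% epiboly 1 of 7 measured genes was at least 2-fold lower, and at 3-ss 1 of 6 was lower and 1, sox32, was higher by a bound of 1.35 on the log2 scale. The marker sox17 was under the floor in both pools at 3-ss. The periderm and epidermis list had 0 of 15 genes past 2-fold by genotype at either stage, with summed signals from 135496 to 153276. Whether these shifts take part in the lower maf and nfe2l2a signals was not tested.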

How the data were processed

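RNA of 4 pools of whole embryos was hybridised to the Affymetrix Zebrafish Genome Array, 1 array for each condition, from 250 ng of RNA. The deposited values are linear intensity signals, computed by the authors with MAS5 (version not given in the sources used here), and every array had a trimmed mean of about 500. Column headings of the study's tables name heat shock (-) and (+). The sample labels, which name the genotypes, were followed. Signal log ratios and change calls of the authors were not used.

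From the signals, log2 ratios were computed in Python (3.11.15) using pandas (2.3.3) and numpy (2.4.6). Plots used matplotlib (3.10.9). The 115 control probe sets were left out. The floor of 32.4 is the 95th percentile of 80 signals of 20 controls named for tag sequences and trp (median 6.45), which have no target in the embryo. Between 71.3% and 74.4% of probe sets reached it on each array. A probe set was measured in a comparison where at least 1 of its 2 signals reached the floor, and was counted past 2-fold. The array's annotation gave 1 symbol for 10795 probe sets, several for 135, and left 4572 out; for 164 of those a name was found in the study's tables. All probe sets of the 9 genes are named. Of each list, examples are the largest ratios, measured ones before bounds, and atf5b and fosl1b were added after their values were seen. The members and lists were chosen with earlier results of these data known. Computation of the ratios was tested on simulated data, with changes placed only in probe sets far above the floor. Ratios near the floor and bounds were not checked in this way. Alternatives changed the floor, the scaling, the fold threshold, the filter and the choice of probe set. With 1 array for each condition there is no p-value, and the number of arrays limits the precision.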

Additional observations from a re-analysis of the deposited data

Results flagged for a closer look

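The fosab probe set Dr.12986.3.S1_a_at was marked because its genotype log2 ratio had opposite signs at the stages, with each larger than the spread between probe sets of a gene. The 3-ss ratio minus the 90% epiboly ratio was 0.92, from a bound of -0.37 to 0.55, and the difference was not tested, since each condition has 1 array. Its signals at 90% epiboly, 41.9 and 30.4, lay on either side of the floor.

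Among the control probe sets, which enter no comparison above, several read higher in en-pou5f3 than in wild-type embryos at both stages. Of these, 1 had by far the largest ratios. It read 110 and 5531 at 90% epiboly, a log2 ratio of 5.66, and 1670 and 14534 at 3-ss, a log2 ratio of 3.12. Its target is not named in the sources used here.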

How the results depend on the processing

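No ratio past 2-fold changed sign under any of the 11 alternatives, and median centring and quantile normalization moved none of the member values or counts beyond the spread between probe sets. With no floor, or a floor at the median of the controls, the member probe sets lower by genotype at 3-ss, and those lower at 3-ss in en-pou5f3 embryos, came to 2 each of 17 in place of 1 and 0. The shares of all probe sets were then 6.84% and 8.12% with no floor and 5.33% and 6.62% with the lower floor. Adding the floor value to every signal left 1 member probe set of 14 higher at 90% epiboly in place of 3 (0.785% of all), with fosl2 at 0.74 and junba at 0.91 on the log2 scale, and brought the median stage log2 ratio in wild-type to 1.78. It also made the lower genotype ratios smaller in size. At 90% epiboly the maf probe sets were then at -2.59 and -1.48 and nfe2l2a at -1.14, and at 3-ss the brighter maf probe set was at -1.41. At 1.5-fold, 6 of 14 were higher by genotype at 90% epiboly (5.89% of all) and 8 of 16 at 3-ss (8.03%), and 3 of 15 were lower by stage in wild-type (12.1%) and 1 of 16 in en-pou5f3 (11.0%). At 3-fold, 0 of 14 were higher by genotype at 90% epiboly (0.233%) and 1 of 16 at 3-ss (0.201%). The median genotype log2 ratio over the 9 genes at 90% epiboly was 0.39 without probe sets with shared probes and 0.28 with the mean of a gene's probe sets, and the stage median in en-pou5f3 was 3.20 where each gene was represented by its most changed probe set. All 12 calls by stage in each genotype were kept at 3-fold, 11 higher and 1 lower in wild-type and 12 higher in en-pou5f3. Of all probe sets, 3.10% were at least 3-fold higher and 0.855% lower by stage in wild-type, and 2.68% were higher in en-pou5f3. Keeping only probe sets over the floor on both arrays left 10 of 12 calls by stage in wild-type and 9 of 12 in en-pou5f3, since it takes out the bounds, and leaving out probe sets with shared probes left 10 of 12 in each, since it takes out those of fosab. No paired analysis was possible because each group has 1 array and no result comes from a test. Signals close to the floor limit how large a ratio can be read. At 90% epiboly this held for maf and nfe2l2a in en-pou5f3 embryos and for fosl2 and junba in wild-type embryos.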
